A study of Mus musculus with 4 samples.

Results

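Interferon-stimulated and viral RNA sensing genes were followed across the cell types of the mouse lung at E18.5 (embryonic day), after deletion of Dnmt1, the maintenance DNA methyltransferase. The 41 genes were chosen by name, and all 41 were found among the 55471 gene identifiers of the deposited tables. They comprise 8 RNA and nucleic acid sensors and their adaptor, 6 transcription factors and feedback regulators, 23 antiviral effectors and 4 genes of antigen processing and presentation. Droplet 3′ single-cell libraries were compared in 2 groups. The Dnmt1 CKO group (2 libraries) carries Tbx4-rtTA and Tet-O-Cre, with Dnmt1 given as D/D: a Tbx4-driven activator switches on Cre and Cre deletes part of Dnmt1; Tbx4 is active in the lung mesenchyme, and the labels give no inducer or its timing. The wild type group (2 libraries) is labelled wild type, with no transgene given. Both groups are digested lung tissue of the same age, treated with red blood cell lysing buffer. The labels do not say that the libraries came from separate embryos, so p-values measure the spread between these 4 libraries only.

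In an infected cell, RIG-I (Ddx58) and MDA5 (Ifih1) bind viral double-stranded RNA and signal through the adaptor MAVS to the transcription factors IRF3 and IRF7, which switch on interferon genes. Secreted interferon then acts through STAT2 and IRF9 on a large set of antiviral genes, many of which carry an interferon-stimulated response element (ISRE) in their promoter. Loss of DNA methylation can switch on transcripts of endogenous retroviruses in other cell types, and the interferon response to such RNA is known as viral mimicry. The comparisons below ask whether the genes of this response were higher in the mesenchymal cells that lost Dnmt1, and whether they were lower in the immune cells of the same lungs.

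The Dnmt1 CKO libraries held 49582593 and 54334468 UMIs (unique molecular identifiers, here counts of captured transcripts) in replicates 1 and 2, and the wild type libraries 48213065 and 56760219. After filtering, 4323 and 5675 Dnmt1 CKO cells and 5111 and 4932 wild type cells remained. Any pair of libraries shared 8 to 16 deposited barcodes and 4 to 10 barcodes of kept cells. Dnmt1 CKO replicate 1 stood apart from the other 3 libraries for the genes described here. It was the lowest of the 4 for 37 of 41 genes in immune-like cells, against 16.8% of all tested genes, and for 28 of 36 in endothelial-like cells, against 29.8%. In mesenchymal-like cells it was the lowest for 23 of 36, against 27.2% of all tested genes. The same library held 41149 UMIs of Xist together with 8399 of Y-linked genes, whereas each of the other libraries held more than 18 UMIs of one of the 2 kinds only. Results that rest on it are given with and without it. Where sex was a covariate, Dnmt1 CKO replicate 1 was entered as male because of its Y-linked UMIs, despite its Xist UMIs.

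Dnmt1 itself was lower in the cells the Cre line targets. In mesenchymal-like cells, those that express collagen and other fibroblast, muscle and pericyte genes, Dnmt1 (ENSMUSG00000004099.16, chromosome 9, 20907209 to 20959888 on GRCm38.p6) stood at 9.72 and 12.8 CPM (a gene's UMIs scaled to the summed UMIs of the class) in Dnmt1 CKO libraries, against 27.7 and 26.0 in wild type libraries, a log2 fold change of -1.27 ± 0.22 (SE; edgeR quasi-likelihood test, adjusted p = 0.00448). In immune-like cells the levels were 76.3 and 39.8 CPM against 54.7 and 62.2 CPM, and in endothelial-like cells 73.2 and 62.3 CPM against 73.0 and 66.5 CPM, so that the groups overlapped in both classes. The mesenchymal-like class held 2566 and 2791 Dnmt1 CKO cells and 2801 and 2558 wild type cells.

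In mesenchymal-like cells 5 members rose and 2 fell, of 36 with enough counts to be tested. The 5 were Isg15, Bst2, B2m, Ifit1 and Oasl1; the 2 were Irf9 and Stat2. The 7 calls are 19.4% of the tested members, where 13.6% of all 16158 tested genes were called (7.53% higher and 6.1% lower). The median log2 fold change of the members was -0.16, against 0.00 for all genes, and 16 of the 36 had a positive value. Both Dnmt1 CKO libraries were above both wild type libraries for 25% of the members, against 31.2% of all genes, and below both for 22.2%, against 26.1%.

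None of the 8 sensors was called, and their median log2 fold change was -0.30. Ifih1 stood at 1.60 and 3.46 CPM in Dnmt1 CKO libraries and at 2.91 and 6.38 CPM in wild type libraries (log2 fold change -0.89 ± 0.46, adjusted p = 0.242). Ddx58 stood at 8.42 and 9.62 CPM, against 10.9 and 17.8 CPM (-0.68 ± 0.26, adjusted p = 0.113), with both Dnmt1 CKO libraries below both wild type libraries. The adaptor Mavs had 3.11 and 3.58 CPM against 4.71 and 5.44 CPM (-0.62 ± 0.29, adjusted p = 0.198). Tlr3, the endosomal receptor of double-stranded RNA, stood at 1.00 and 0.938 CPM against 0.697 and 1.53 CPM, and Dhx58, which modulates RIG-I and MDA5 signalling, had a log2 fold change of 0.09; those of Eif2ak2 and Adar were -0.39 and -0.07. No sensor was called by DESeq2 either. The value furthest above 0 among the sensors belonged to Zbp1, a sensor of Z-form nucleic acid, at 1.00 and 2.40 CPM in Dnmt1 CKO libraries and 0.465 and 0.841 CPM in wild type libraries (1.34 ± 0.55, adjusted p = 0.142). The unadjusted p was under 0.05 for 2 of these 8, Zbp1 and Ddx58, in opposite directions, and for 28.1% of all genes.

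The transcription factors that carry the interferon signal fell or were not called. Irf9, the DNA-binding subunit of the complex that type I interferon activates, had 8.62 and 14.7 CPM in Dnmt1 CKO libraries and 18.9 and 32.4 CPM in wild type libraries (-1.15 ± 0.31, adjusted p = 0.0412). Its partner Stat2 had 16.2 and 17.1 CPM against 25 and 33.3 CPM (-0.82 ± 0.20, adjusted p = 0.0216). The groups did not overlap for either gene. Irf3, which acts directly below MAVS, and Irf1 had log2 fold changes of 0.19 and 0.13, and the interferon-induced Irf7 stood at 2.26 and 4.10 CPM against 3.89 and 5.04 CPM (-0.51 ± 0.36, adjusted p = 0.393). Usp18, which dampens interferon receptor signalling, was not called either (-1.0 ± 0.52, adjusted p = 0.251).

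Of the 23 antiviral effectors, 18 were tested, 4 rose and none fell. Isg15, a ubiquitin-like protein that interferon induces, stood at 14 and 25.2 CPM in Dnmt1 CKO libraries and at 7.38 and 8.75 CPM in wild type libraries (1.26 ± 0.29, adjusted p = 0.0185). Bst2, or tetherin, which holds budding virus at the cell surface, stood at 43.8 and 83.6 CPM against 27.4 and 26.1 CPM (1.24 ± 0.29, adjusted p = 0.0245). In both, Dnmt1 CKO replicate 2 was well above replicate 1, while the wild type libraries lay close together.

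Ifit1, which binds viral RNA by its 5′ end, and Oasl1, an oligoadenylate synthetase-like protein, rose at much lower levels. Ifit1 had 20 and 29 UMIs in Dnmt1 CKO libraries and 6 and 5 UMIs in wild type libraries, or 1.00 and 1.70 CPM against 0.349 and 0.247 CPM (2.15 ± 0.56, adjusted p = 0.0312). Oasl1 had 16 and 23 UMIs against 3 and 6 UMIs (2.12 ± 0.59, adjusted p = 0.0406). The other 14 tested effectors were not called, with log2 fold changes between -1.55 (Cmpk2) and 0.98 (Gbp2); those of Mx2, Gbp3, Ifi44, Ifit2, Ifi35, Ifit3, Ifitm3, Xaf1 and Rtp4 were also below 0, and those of Ifi27l2a, Rsad2 and Oasl2 above it. Among them, Ifitm3, the most abundant, had 481 and 820 CPM in Dnmt1 CKO libraries and 843 and 779 CPM in wild type libraries, Rsad2 had 1.05 and 1.23 CPM against 0.639 and 1.09 CPM, and Cmpk2 had 0.301 and 0.528 CPM against 1.16 and 1.24 CPM (-1.55 ± 0.51, adjusted p = 0.0748). Ifit3b, Oas1a, Oas2, Oas3 and Mx1 had 10 UMIs or fewer in every library and were not tested; reads of the near-identical Ifit3 and Ifit3b may be split between them.

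All 4 genes of antigen processing and presentation had positive log2 fold changes, with a median of 0.52. B2m, the light chain of MHC class I, was called: it stood at 251 and 305 CPM in Dnmt1 CKO libraries and at 146 and 145 CPM in wild type libraries (0.92 ± 0.20, adjusted p = 0.0141), without overlap. The peptide transporter Tap1 and the immunoproteasome subunits Psmb8 and Psmb9 were not called, and in each of them Dnmt1 CKO replicate 1 was the lowest and Dnmt1 CKO replicate 2 the highest of the 4 libraries.

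**Figure D1:**
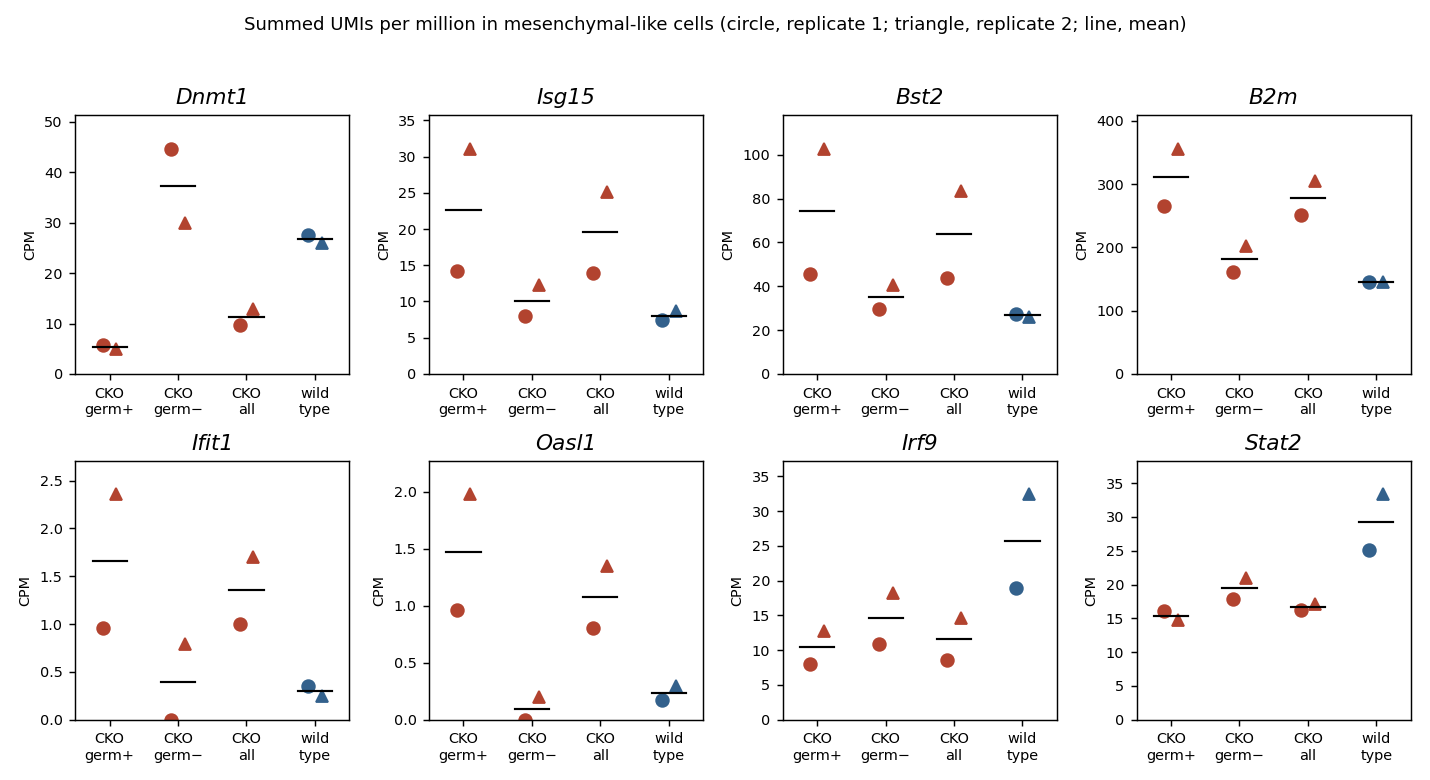
Dnmt1 and the 7 members called in mesenchymal-like cells, as CPM of summed UMIs (linear axes from 0) in each library. Columns show germline-positive, germline-negative and all Dnmt1 CKO cells and, last, wild type cells; circles are replicate 1, triangles replicate 2 and lines the mean. Isg15 stands at 14.2 and 31.1 CPM in germline-positive cells and at 7.94 and 12.3 CPM in germline-negative cells (replicates 1 and 2). In wild type libraries it stands at 7.38 and 8.75 CPM.

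The calls depended on single libraries. Without Dnmt1 CKO replicate 2, no member rose and 6 fell (Mx2, Irf9, Stat2, Ifih1, Usp18 and Gbp3), where 13.8% of all genes were called, and the members' median was -0.68. Without Dnmt1 CKO replicate 1, 7 rose (Isg15, Ifit1, Zbp1, Bst2, Gbp2, B2m and Psmb8) and none fell, where 8.09% of all genes were called, and the median was 0.18. With wild type replicate 1 left out, 1 rose (B2m) and 3 fell (Ifit2, Stat2 and Ddx58), and without wild type replicate 2, 1 rose (B2m) and none fell, where 11.6% and 6.36% of all genes were called. In these fits the group left with 1 library is assumed to vary like the other group.

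Summed marker lists of other cell types also differed between the libraries, but not all in the same direction. The summed level of 8 immune markers in mesenchymal-like cells was 27.8 and 41.4 CPM in Dnmt1 CKO libraries and 18.6 and 19.3 CPM in wild type libraries, with all 8 detected. The 8 epithelial markers gave 38.8 and 84.3 CPM against 44.5 and 34.6 CPM, the 8 endothelial markers 86.0 and 108 CPM against 87.0 and 84.9 CPM, and the 7 monocyte markers 94.7 and 239 CPM against 38.0 and 76.9 CPM. The 8 macrophage markers gave 524 and 988 CPM against 1893 and 1979 CPM. What part monocyte or macrophage transcripts have in the members' values was not tested. When mesenchymal-like cells with any UMI of the 24 immune, endothelial or epithelial markers were left out, Bst2 (1.23, adjusted p = 0.0100) and B2m (0.88, adjusted p = 0.0106) still rose and Irf9 and Stat2 still fell. Isg15 was not called there (1.08, adjusted p = 0.492), and Ifit1 and Oasl1 fell below the count filter. With all mesenchymal-like cells 13.6% of all genes were called, and the share for the selected cells is not given here. That selection, added after the data were seen, kept 40.4% and 34.1% of the Dnmt1 CKO cells and 50.1% and 45.8% of the wild type cells.

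Few mesenchymal-like cells held a transcript of Isg15 or Bst2 at matched depth. With each cell thinned to 3000 UMIs, Bst2 was seen in 8.54% (exact 95% interval 7.46 to 9.73) and 15.7% (14.3 to 17.2) of Dnmt1 CKO cells and in 7.12% (6.16 to 8.17) and 6.23% (5.30 to 7.27) of wild type cells. Isg15 was seen in 2.56% and 3.57% of Dnmt1 CKO cells, against 1.87% and 1.79% of wild type cells. In alveolar type 2-like cells, taken as a background, Bst2 was seen in 3.45% and 3.15% of Dnmt1 CKO cells and 3.09% and 3.85% of wild type cells, and Isg15 in at most 1.55% of any library. Median depths were 5816 to 7649 UMIs in mesenchymal-like and 7915 to 12017 UMIs in alveolar type 2-like cells. The intervals cover counting error only. Unthinned, the Bst2 shares of mesenchymal-like cells were 18.2% and 25.5% in Dnmt1 CKO libraries and 12.9% and 14% in wild type libraries.

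Promoters of the 5 members that rose are shown because the ISRE is the element through which STAT2 and IRF9 act. The sequences are the 150 bases before the RefSeq start on GRCm38.p6, on the gene's strand, and capitals mark the ISRE letters (GAAA, any NN, GAAA, or on the other strand TTTC, any NN, TTTC), which overlap in Isg15 and Bst2. They lie at chr4:156200819-156200968 (minus strand, Isg15), chr19:34640739-34640888 (plus, Ifit1), chr5:114923090-114923239 (plus, Oasl1), chr8:71537473-71537622 (minus, Bst2) and chr2:122147537-122147686 (plus, B2m).
Isg15: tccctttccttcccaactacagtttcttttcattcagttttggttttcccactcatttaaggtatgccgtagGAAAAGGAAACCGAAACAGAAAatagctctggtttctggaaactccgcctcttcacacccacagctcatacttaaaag
Ifit1: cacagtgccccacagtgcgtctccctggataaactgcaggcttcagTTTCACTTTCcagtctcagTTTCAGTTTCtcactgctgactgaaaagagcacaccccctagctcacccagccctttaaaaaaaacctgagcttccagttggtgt
Oasl1: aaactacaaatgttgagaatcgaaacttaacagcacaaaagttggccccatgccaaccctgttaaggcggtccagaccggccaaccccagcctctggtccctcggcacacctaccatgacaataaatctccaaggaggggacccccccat
Bst2: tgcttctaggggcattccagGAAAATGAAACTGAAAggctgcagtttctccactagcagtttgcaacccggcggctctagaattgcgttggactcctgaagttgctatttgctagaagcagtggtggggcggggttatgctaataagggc
B2m: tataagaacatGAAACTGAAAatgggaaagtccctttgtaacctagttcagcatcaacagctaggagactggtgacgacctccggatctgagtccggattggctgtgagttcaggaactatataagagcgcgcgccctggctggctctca

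The letters were found in 4 of the 5 windows, and not in that of Oasl1. In Isg15 there are 3 overlapping matches, starting 78, 72 and 66 bases before the start, in Ifit1 matches at 104 and 85 bases, in Bst2 at 130 and 124 bases, and in B2m at 139 bases. Among the 33 members in the RefSeq promoter table, 12 (36.4%) held the letters within 250 bases before the start, against 3.05% of 27025 genes. Of the 12, 10 were antiviral effectors. For members the RefSeq entry nearest the annotated start was used, and for all genes the most upstream one, so the windows are unlike. The members were also chosen as interferon-stimulated and sensing genes, so a higher share is no finding about these libraries. The windows of Tlr3, Psmb8, Psmb9 and Irf9 lie 700, 474, 434 and 414 bases from the annotated start. Stat2, which fell, held 1 match at 222 bases, and none of the 6 sensors in the table held one. CG pairs, the sites that Dnmt1 maintains in methylated form, numbered 4 in the 250 bases of Isg15, 4 in Ifit1, 7 in Oasl1, 8 in Bst2 and 8 in B2m, and the median was 6.0 both over members and over all genes.

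Mesenchymal-like cells of the same mutant libraries differed in their Dnmt1 level. Cells were divided by 9 germline genes, such as Dazl and Tex101, that are silenced by DNA methylation in somatic cells and were not used as members. Germline-positive cells (3 or more UMIs of the 9) numbered 2036 and 1572 in the Dnmt1 CKO libraries, and germline-negative cells (0 UMIs) 296 and 914; only 1 wild type mesenchymal-like cell was positive. Dnmt1 stood at 5.71 and 4.99 CPM in germline-positive cells and at 44.7 and 29.9 CPM in germline-negative cells of Dnmt1 CKO libraries, against 27.7 and 26.0 CPM in wild type libraries.

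Against wild type, germline-positive cells had the same 5 members higher and 3 lower (Irf9, Stat2 and Ifi35). These 8 are 22.2% of the 36 tested, where 22.1% of all genes were called (11.4% higher and 10.7% lower). B2m stood at 265 and 356 CPM in germline-positive cells (1.08 ± 0.20 against wild type, adjusted p = 0.00323), Bst2 at 45.6 and 103 CPM (1.45 ± 0.37, adjusted p = 0.0288) and Isg15 at 14.2 and 31.1 CPM (1.46 ± 0.35, adjusted p = 0.0170). Stat2 stood at 16.0 and 14.8 CPM in germline-positive cells (-0.93 ± 0.19, adjusted p = 0.00576) and Ifi35, an interferon-induced leucine zipper protein, at 8.77 and 12.2 CPM against 18.8 and 15.8 CPM (-0.76 ± 0.23, adjusted p = 0.0403). When Dnmt1 CKO replicate 1 was left out, 10 rose and 2 fell, where 14.1% of all genes were called, and without replicate 2 none rose and 6 fell, where 16.4% were.

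Germline-negative cells had no member called against wild type with edgeR or DESeq2, where edgeR called 1.16% of all genes; unadjusted p was under 0.05 for 6 of 36 members and 13.5% of all genes. In them B2m stood at 161 and 202 CPM (0.32 ± 0.20, adjusted p = 0.537), Bst2 at 29.8 and 40.8 CPM (0.42 ± 0.38) and Isg15 at 7.94 and 12.3 CPM (0.38 ± 0.40). The smallest p belonged to Irf1, a transcription factor induced by interferon gamma, with 62.6 and 57.8 CPM in germline-negative cells against 36.1 and 41.0 CPM in wild type cells (0.63 ± 0.17, adjusted p = 0.111), followed by Eif2ak2 (PKR, a double-stranded RNA dependent kinase; -0.76 ± 0.24, adjusted p = 0.184) and Stat2 (-0.57 ± 0.21, adjusted p = 0.252).

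Germline-positive cells were also tested against germline-negative cells of the Dnmt1 CKO libraries. Both parts come from the same 2 libraries; without a term for the library 2 members differed, where 8.3% of all genes were called. B2m was higher in germline-positive cells (0.76 ± 0.20, adjusted p = 0.0409) and Irf1 was lower (-0.69 ± 0.17, adjusted p = 0.0277). Isg15 (1.08 ± 0.39, adjusted p = 0.134), Bst2 (1.03 ± 0.38, adjusted p = 0.159) and Oasl1 (3.25 ± 1.12, adjusted p = 0.106) were not called. Oasl1 had 0.961 and 1.98 CPM in germline-positive cells and 0 and 0.198 CPM in germline-negative cells. With the library as a block, 5 members were higher (Isg15, Eif2ak2, Bst2, Xaf1 and B2m) and 3 lower (Irf1, Ifi35 and Ifi27l2a) of 29 tested, where 29.3% of all genes were called. When either Dnmt1 CKO library was left out of the fit without the block, Irf1 was not called, and B2m was not called without any one of the 4 libraries.

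Among mesenchymal subtypes, matrix fibroblast-like cells (136 and 475 Dnmt1 CKO cells, 1874 and 1723 wild type cells) had 1 of 26 members called, Irf1, where 1.07% of all genes were called. Irf1 stood at 68.6 and 51.3 CPM in Dnmt1 CKO libraries and at 26.0 and 33.2 CPM in wild type libraries (0.99 ± 0.25, adjusted p = 0.0468). The call was lost in 9 of 15 alternatives, among them DESeq2, sex as a covariate, both other Leiden resolutions and leaving out either replicate 1 library. Adjusted p in the 9 ran between 0.0576, with wild type replicate 1 left out, and 0.391, with Dnmt1 CKO replicate 1 left out. A cluster led by Igf1, Mgp and Myh11, which held 339 and 284 Dnmt1 CKO cells but 28 and 43 wild type cells, had B2m called at 261 and 251 CPM against 142 and 117 CPM (1.07 ± 0.25, adjusted p = 0.0233), where 5.12% of all genes were called; DESeq2 did not call it (adjusted p = 0.0700), and the adjusted p was 0.116, 0.0801 and 0.163 without Dnmt1 CKO replicate 1, without Dnmt1 CKO replicate 2 and without wild type replicate 2. No member was called by edgeR in adventitial fibroblast-like, myofibroblast-like, pericyte-like, smooth muscle-like or cycling mesenchymal-like cells or in a cluster led by Dcn, Col3a1 and Col1a1, where 1.32%, 0.404%, 3.6%, 0.208%, 2.46% and 2.37% of all genes were called. Unadjusted p was under 0.05 for 5, 2, 5, 1, 4 and 1 members in these 6, in the same order, and for 11%, 7.46%, 13.7%, 7%, 14.5% and 16.2% of all genes. DESeq2 called none of the members there. B2m was higher in both Dnmt1 CKO libraries than in both wild type libraries in 5 of the 6, adventitial fibroblast-like cells being the exception, and stood at 231 and 309 CPM against 167 and 162 CPM in pericyte-like cells. The largest mutant cluster, led by Mgp, Mfap4 and Dazl, held 963 and 979 Dnmt1 CKO cells and 6 and 6 wild type cells and was not tested.

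Genes around the members were counted in the same fit, in which 7.53% of all genes rose and 6.1% fell. Of 20 interferon ligand genes none passed the count filter in mesenchymal-like cells, and their summed level was 0.05 and 0 CPM in Dnmt1 CKO libraries and 0 and 0.05 CPM in wild type libraries. Of 9 tested interferon receptors and receptor kinases 1 fell: Ifngr1, a chain of the interferon gamma receptor, had 52.7 and 69.1 CPM against 101 and 136 CPM (-0.97 ± 0.21, adjusted p = 0.0147). Among 19 tested genes of the sensing pathway outside the members 3 rose. Pnpt1, a mitochondrial exoribonuclease that limits release of mitochondrial double-stranded RNA, stood at 61.0 and 44.1 CPM against 11 and 13.9 CPM (2.06 ± 0.22, adjusted p = 0.000238). Traf3, an adaptor below MAVS, rose (1.43 ± 0.25, adjusted p = 0.00518), as did Ripk3, a kinase of necroptosis (1.09 ± 0.28, adjusted p = 0.0314). Ikbke, a kinase of IRF3, fell (-1.47 ± 0.37, adjusted p = 0.0261).

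Of 44 other interferon-stimulated genes tested, 5 rose and 1 fell, where 7.53% of all genes rose and 6.1% fell, and their median was 0.12. Cxcl10, a chemokine of T cells, stood at 22.1 and 25.3 CPM in Dnmt1 CKO libraries and at 6.33 and 3.02 CPM in wild type libraries (2.32 ± 0.34, adjusted p = 0.00297). Ccl5, another chemokine, had 64 and 98 UMIs against 1 and 3 UMIs (5.30 ± 0.59, adjusted p = 0.000365); Ifi213, Slfn8 and Ddx60 also rose, each with fewer than 1 CPM in both wild type libraries. Ifitm1 fell, with 280 and 527 CPM against 880 and 784 CPM (-1.06 ± 0.30, adjusted p = 0.0438). No class I gene outside the members was called among 14, and of 5 tested class II genes H2-Ab1 rose, at 2.15 and 1.64 CPM against 0.349 and 0.346 CPM (2.42 ± 0.48, adjusted p = 0.00945).

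**Figure D2:**
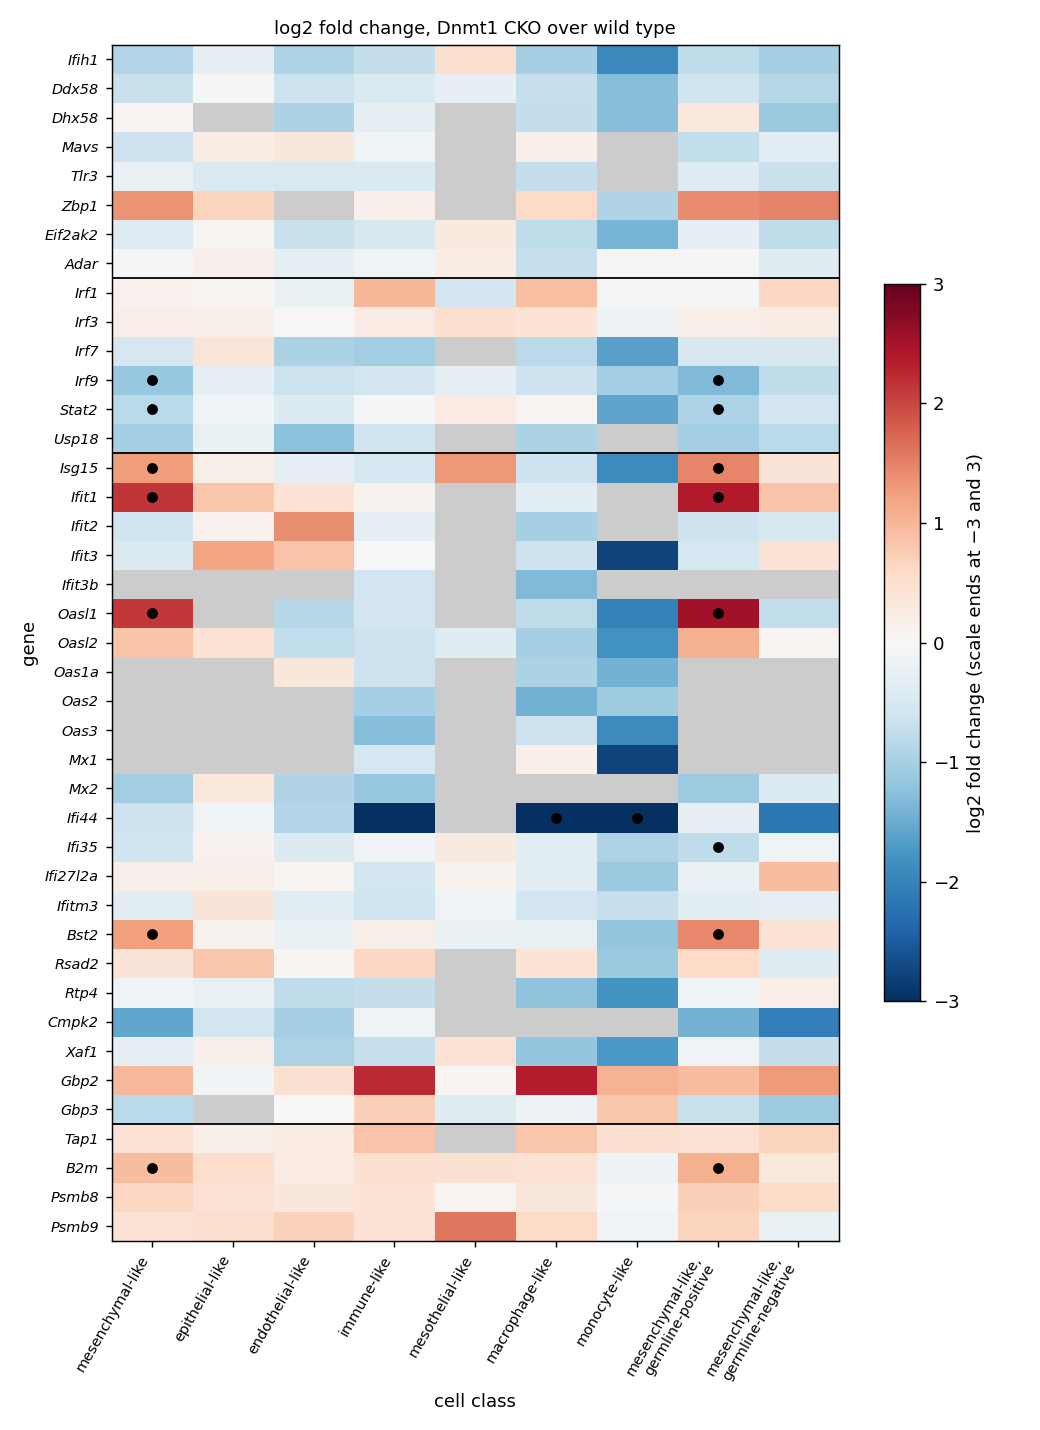
Log2 fold changes, Dnmt1 CKO over wild type, of the 41 members (rows, grouped by role from sensors at the top to antigen presentation at the bottom) in each cell class (columns). Colours end at -3 and 3, grey marks a gene that was not tested and a dot an adjusted p under 0.05. Dots are confined to the mesenchymal-like, germline-positive, macrophage-like and monocyte-like columns among those drawn.

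Outside the mesenchyme no member was called in the epithelial-like, endothelial-like or mesothelial-like class. In epithelial-like cells 33 members were tested, 0% of all genes were called and DESeq2 called no member; unadjusted p was under 0.05 for 3.09% of all genes and for 1 member, B2m, with 46.9 and 64.6 CPM in Dnmt1 CKO libraries and 35.3 and 40.8 CPM in wild type libraries (0.53 ± 0.21, adjusted p = 1.00). The next smallest p belonged to Ifit3 (1.19 ± 0.56) and Psmb8 (0.44 ± 0.24). In mesothelial-like cells, where Dnmt1 fell (-1.84 ± 0.38, adjusted p = 0.0346), 20 members were tested and 0.845% of all genes were called; unadjusted p was under 0.05 for 10.9% of all genes and for 1 member, Psmb9, with 15.4 and 51.2 CPM against 5.40 and 15.5 CPM (1.57 ± 0.64, adjusted p = 0.425). DESeq2 called no member there. Those libraries held only 40 and 67 Dnmt1 CKO and 37 and 30 wild type cells.

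Endothelial-like cells are among the cells with most transcripts of these genes: without B2m and Ifitm3, the members summed to 1058 and 2148 CPM in Dnmt1 CKO libraries and to 1783 and 2197 CPM in wild type libraries, against 262 to 385 CPM in mesenchymal-like cells. Of 36 tested none was called by edgeR or DESeq2, where edgeR called 0.0707% of all genes, and 8 had an unadjusted p under 0.05, all with negative values, as did 1.64% of all genes with negative values and 2.35% with positive ones. The 3 with the smallest p were Ifih1, at 14 and 20.5 CPM against 28.6 and 39.4 CPM (-0.93 ± 0.28, adjusted p = 0.674), Usp18 (-1.24 ± 0.38, adjusted p = 0.674) and Cmpk2 (-1.0 ± 0.32, adjusted p = 0.712). Both Dnmt1 CKO libraries were below both wild type libraries for 33.3% of the members, against 15.6% of all genes, and above both for none, against 13% of all genes. With Dnmt1 CKO replicate 2 left out, 6 members fell and Ifit2 rose, where 0.651% of all genes were called. Without replicate 1 none was called, where 0.718% of all genes were. No member was called in the epithelial or endothelial subclasses or in a cluster led by Sftpc, Sftpa1 and Ager with edgeR or DESeq2. EdgeR called 0.0756% of all genes in general capillary-like, 0.0296% in cycling endothelial-like, 0.0293% in arterial or venous-like, 0% in aerocyte-like, 0.317% in alveolar type 1-like and 0.0205% in alveolar type 2-like cells and 0.0308% in the Sftpc cluster. In general capillary-like cells unadjusted p was under 0.05 for 9 of 34 members, all lower, where 2.0% of all genes were lower at that threshold. In cycling endothelial-like cells it was under 0.05 for 5 of 32, all lower, where 1.67% of all genes were. It was under 0.05 for 6 of 22 members in arterial or venous-like cells, 3 of them higher, against 3.87% of all genes, and for 1 of 23 in aerocyte-like cells, against 2.47%. The counts were 3 of 25 in alveolar type 1-like cells (5.92% of all genes), 3 of 15 in alveolar type 2-like cells (4.39%) and 1 of 27 in the Sftpc cluster (3.69%).

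The change of each member in mesenchymal-like cells was set against its change in the other classes by an interaction term. Set against the epithelial-like, the endothelial-like and the immune-like class, no member differed with edgeR, where 0.208%, 0.067% and 0.227% of all genes did, nor with DESeq2. Unadjusted p was under 0.05 for 1, 4 and 2 members, and for 10.5%, 8.84% and 10.0% of all genes. The smallest adjusted p belonged to Ifi44 against immune-like cells (5.07 ± 1.13, adjusted p = 0.180), to Oasl1 against endothelial-like cells (3.01 ± 0.72, adjusted p = 0.232) and to Stat2 against epithelial-like cells (-0.70 ± 0.28, adjusted p = 0.429). That a member was called in mesenchymal-like cells and not in another class is therefore not shown to be a difference between classes. Both sums of a library were entered without a term for that library, so the pairing of classes was not used.

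In immune-like cells none of the 41 members, all tested, was called by edgeR, where 0.0161% of all genes were called; unadjusted p was under 0.05 for 2, and for 4.88% of all genes, and DESeq2 called 1 member, Ifi44. The median log2 fold change was -0.43, against 0.00 for all genes, and 29 members had negative values. Both Dnmt1 CKO libraries were below both wild type libraries for 26.8% of the members, against 18.7% of all genes, and above both for 4.88%, against 12.8%. Isg15 had 26.6 and 99.0 CPM in Dnmt1 CKO libraries and 96.1 and 98.5 CPM in wild type libraries (-0.52 ± 0.77, adjusted p = 0.999), and Irf7 had 10.1 and 41.2 CPM against 53.4 and 59.7 CPM (-1.03 ± 0.80). Bst2 had 79.6 and 395 CPM against 173 and 283 CPM. In all 3, Dnmt1 CKO replicate 1 was the lowest library, and for Isg15 and Bst2 replicate 2 was level with or above the wild type libraries.

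The members' median differed between the Dnmt1 CKO libraries. Relative to the wild type mean, on the scale log2(CPM + 1), the median over the 41 members was -1.19 in Dnmt1 CKO replicate 1 and 0.06 in replicate 2, against 0.01 and -0.15 over all genes. Without Dnmt1 CKO replicate 2, 20 members fell and none rose, where 1.74% of all genes were called. Without Dnmt1 CKO replicate 1, 10 rose and only Ifi44 fell, where 4.14% of all genes were called. The 10 were Irf1, Zbp1, Bst2, Rsad2, Gbp2, Gbp3, Tap1, B2m, Psmb8 and Psmb9. Zbp1 and Bst2 were thus among those that fell in one fit and rose in the other. The difference between the Dnmt1 CKO libraries was widest for Gbp2, an interferon-induced GTPase, with 2.29 and 63.0 CPM, while the wild type libraries had 5.14 and 9.72 CPM. The immune-like cells also differed in kind between libraries: macrophage-like cells made up 266 of 868 and 422 of 910 immune-like Dnmt1 CKO cells, and 132 of 607 and 146 of 555 wild type ones. The 6 erythroid markers summed to 13911 and 4739 CPM in Dnmt1 CKO libraries and to 5508 and 2331 CPM in wild type libraries. What part either has in the members' values was not tested.

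**Figure D3:**
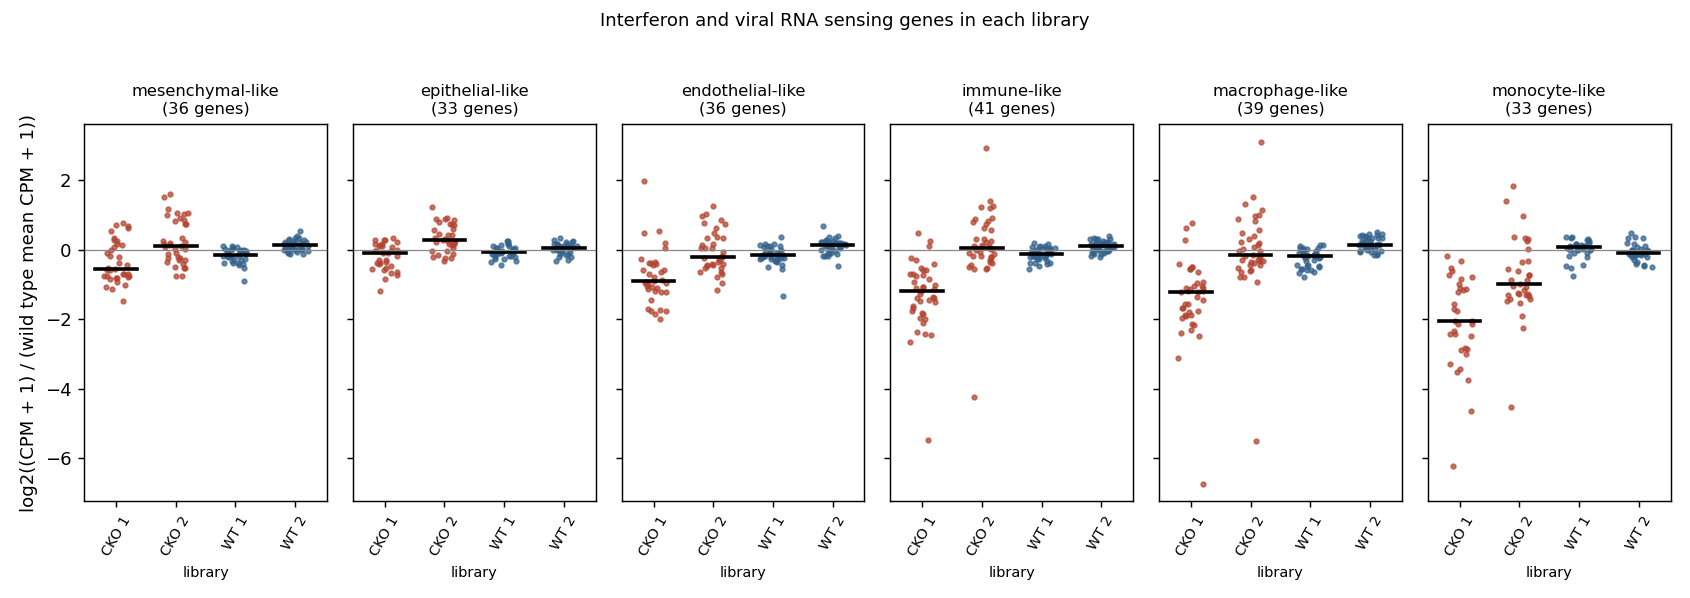
Each tested member (dots) in each library, as log2((CPM + 1) / (wild type mean CPM + 1)), in 6 cell classes, with Dnmt1 CKO libraries to the left and wild type libraries to the right; bars are medians. The median of Dnmt1 CKO replicate 1 lies at -1.19 in immune-like cells and -2.06 in monocyte-like cells, that of Dnmt1 CKO replicate 2 at 0.06 and -0.98.

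In macrophage-like and monocyte-like cells 1 member fell, Ifi44 in both, where 0.106% and 0.0664% of all genes were called. Monocyte-like cells (79 and 145 Dnmt1 CKO cells, 93 and 91 wild type cells) had 24 of the 33 tested members, or 72.7%, below both wild type libraries in both Dnmt1 CKO libraries, against 21.1% of all genes. None was above both, against 16.2% of all genes, and the median log2 fold change was -1.19. Isg15 stood at 39.6 and 175 CPM in Dnmt1 CKO libraries and at 546 and 321 CPM in wild type libraries (-1.90 ± 0.87, adjusted p = 0.803). Mx1, a GTPase that blocks influenza virus, stood at 1.72 and 5.58 CPM against 32.6 and 27.5 CPM (-2.78 ± 0.59, adjusted p = 0.270), and Ifih1 at 10.3 and 27.9 CPM against 93.6 and 70.2 CPM (-1.93 ± 0.42, adjusted p = 0.270). Unadjusted p was under 0.05 for 19 members, all lower, where 3.75% of all genes were lower at that threshold. Without Dnmt1 CKO replicate 1, 5 members fell in monocyte-like cells (Isg15, Oasl2, Ifi44, Ifi27l2a and Rtp4), Gbp2 rose and the median was -0.99, where 1.29% of all genes were called. Without replicate 2, 15 fell and the median was -2.16, where 1.05% were.

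Macrophage-like cells (266 and 422 Dnmt1 CKO cells, 132 and 146 wild type cells) had 16 of 39 tested members, or 41.0%, below both wild type libraries in both Dnmt1 CKO libraries, against 20.3% of all genes, and 5.13% above both, against 19.3%. Isg15 had 33.1 and 122 CPM in Dnmt1 CKO libraries and 89.9 and 160 CPM in wild type libraries, and the members' median was -0.62. Without Dnmt1 CKO replicate 1 the median was -0.03, with 7 members higher and only Ifi44 lower, where 3.09% of all genes were called. Without replicate 2 it was -1.47, with 16 lower, where 1.48% of all genes were called. Irf1 was above wild type in both Dnmt1 CKO libraries, at 297 and 339 CPM against 146 and 201 CPM (0.90 ± 0.23, adjusted p = 0.210). No member was called in lymphoid-like, neutrophil-like or cycling immune-like cells or in a cluster led by Lyz2, Ear2 and Cybb, where 0%, 0%, 0% and 0.0114% of all genes were called; unadjusted p was under 0.05 for 1 member in each, and for 3.61%, 3.29%, 1.77% and 2.16% of all genes, and DESeq2 called none of the members.

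Ifi44, an interferon-induced protein (ENSMUSG00000028037.13, chromosome 3, 151730922 to 151749960 on GRCm38.p6), was nearly undetected in the immune cells of both Dnmt1 CKO libraries. In macrophage-like cells it had 1 and 9 UMIs in Dnmt1 CKO libraries and 129 and 226 UMIs in wild type libraries, or 0.372 and 2.24 CPM against 126 and 166 CPM (-6.56 ± 0.44, adjusted p = 0.000109). In monocyte-like cells it had 0 and 2 UMIs against 35 and 51 UMIs (-5.53 ± 0.60, adjusted p = 0.0242), a Dnmt1 CKO to wild type ratio of 0.0187 with an exact 95% counting interval of 0.00223 to 0.0695. Over all immune-like cells it stood at 0.121 and 1.67 CPM against 43.2 and 55.6 CPM (-5.74 ± 0.76), which edgeR did not call (adjusted p = 0.405) and DESeq2 did. With cells thinned to 3000 UMIs, Ifi44 was seen in 0 of 240 cells (exact 95% upper limit 1.53%) and 1.34% of macrophage-like Dnmt1 CKO cells and in 35.1% and 32.3% of wild type ones. In alveolar type 2-like cells the share was at most 0.549%; median depths were 8339 to 9994 UMIs in macrophage-like cells.

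In endothelial-like cells Ifi44 stood at 18.1 and 46.4 CPM in Dnmt1 CKO libraries and at 56.8 and 67.6 CPM in wild type libraries (-0.88 ± 0.37, adjusted p = 1.00). Oasl2, another interferon-induced effector, stood at 12.3 and 57.3 CPM in Dnmt1 CKO macrophage-like cells and at 61.6 and 84.4 CPM in wild type ones (-1.0 ± 0.90, adjusted p = 0.832). Rtp4, a further one, stood at 24.5 and 85.7 CPM, with 139 and 128 CPM in wild type (-1.21 ± 0.71, adjusted p = 0.719). Leaving out wild type replicate 2 ended the call in macrophage-like cells and leaving out wild type replicate 1 ended it in monocyte-like cells, as did sex as a covariate in macrophage-like cells. The adjusted p was 0.136, 0.151 and 0.168 in these 3 fits. DESeq2 called Ifi44 in macrophage-like cells; in monocyte-like cells it gave no adjusted p for Ifi44 and called Ifi27l2a and Rtp4.

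**Figure D4:**
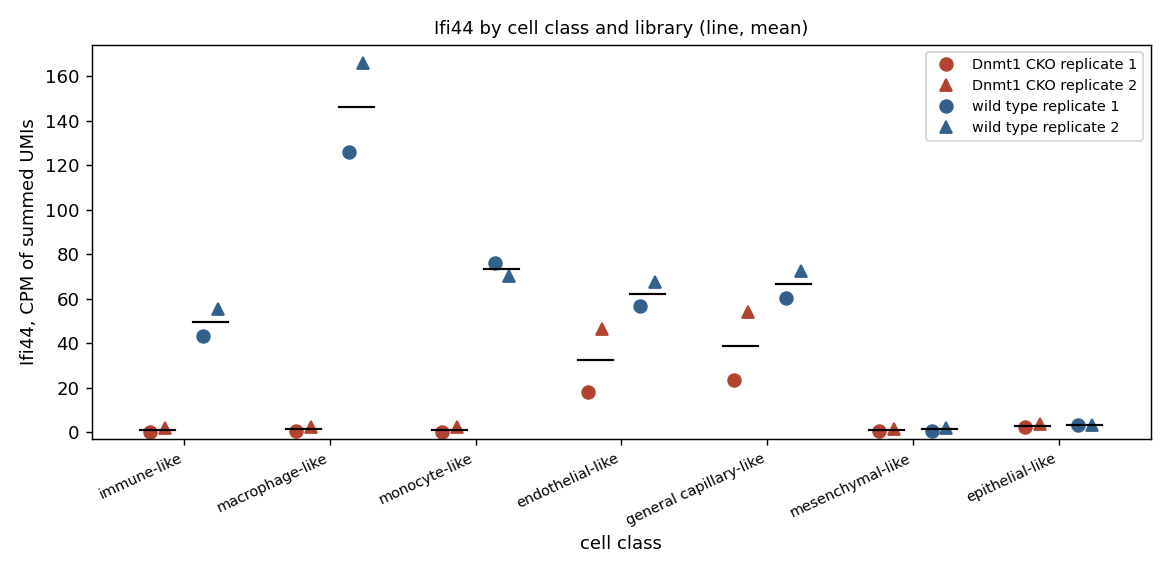
Ifi44 as CPM of summed UMIs in 7 cell classes (linear axis), Dnmt1 CKO libraries left and wild type libraries right in each class; lines are means. In immune-like, macrophage-like and monocyte-like cells both Dnmt1 CKO libraries lie at 2.24 CPM or below, while in endothelial-like cells they lie at 18.1 and 46.4 CPM.

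Immune-like cells made up 20.1% and 16.0% of Dnmt1 CKO cells and 11.9% and 11.3% of wild type cells, a log2 difference of 0.64 ± 0.31 that did not pass the test (edgeR on cell counts, adjusted p = 0.283 over 7 classes). Macrophage-like cells were 6.15% and 7.44% of Dnmt1 CKO cells and 2.58% and 2.96% of wild type cells, whereas neutrophil-like cells were 0.648% and 0.352% against 0.998% and 0.730%. A share depends on the other classes captured, and endothelial-like cells were 5.69% and 10.1% against 13.8% and 16.4%.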

How the data were processed

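The libraries were made with the 10x Genomics 3′ v3 chemistry, per the labels' protocols, and the deposited matrices hold raw UMI counts per gene and cell barcode, made by the authors with Cell Ranger 3.1.0 on GRCm38.p6, per the submitters' processing notes, which also name bcl2fastq 2.20 and Seurat. No cell annotation was used. The lowest deposited barcode in each library had 500 to 503 UMIs.

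Barcodes with at least 500 genes and at most 20% mitochondrial UMIs were kept. Doublets were called with Scrublet in each library at an expected rate of 0.06, and 78 and 82 Dnmt1 CKO and 228 and 172 wild type cells were removed. Cells were clustered with scanpy 1.11.5 (2000 variable genes, 30 components, Leiden resolution 1.0) and named "-like" from marker lists; the score thresholds for naming were set after the clusters were seen, and clusters that reached no name are called by their leading genes. Because clusters and their sizes differ between genotypes, a rebuilt class may hold different cells in the 2 groups. Matrix fibroblast-like cells, for example, came mostly from wild type.

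Counts were summed per library and class, since cells are not replicates, and fitted with edgeR 4.0.16 (robust quasi-likelihood test, TMM, filterByExpr) in R 4.3.3 on all genes, with Benjamini-Hochberg adjustment over all genes tested. A class needed 20 cells in every library. A call is an adjusted p under 0.05, and values after ± are standard errors. Interactions were fitted over the sums of both classes, and the germline comparisons over the 2 parts of each Dnmt1 CKO library and whole wild type libraries. The parts of a library share its cells' origin. DESeq2 1.42.0, other normalizations, filters, clusterings and the leaving out of each library were alternatives. The fits were checked on simulated counts. A true log2 change of 1, up or down, was called for 33% of such genes in the mesenchymal-like and 20% in the immune-like setting. A change of 2 was called for 88% in both. Each setting used a single dispersion for all genes, 0.0394 in the mesenchymal-like and 0.0554 in the immune-like setting. Members can differ widely between libraries of a group. Gbp2 in immune-like cells had log2 ratios to the wild type mean of -1.36 and 2.92 in Dnmt1 CKO replicates 1 and 2. How often a change is called for genes with such a spread was not tested. A member that was not called is thus not shown to be unchanged.

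The members and gene lists were chosen with earlier results of these data known. All called members are named, and where fewer than 3 were called those with the smallest p. Of the other lists, Ripk3, Ddx60 and Ifitm1 were named after their values were seen. A result of these lists that needs a withheld item is not reported here. Promoters came from the RefSeq table for GRCm38.p6, in which 33 of 41 members were matched. Exact binomial intervals cover counting error only.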

Additional observations from a re-analysis of the deposited data

How the results depend on the processing

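Leaving out each library in turn gave 0 to 7 members higher (5 with all libraries) and 0 to 6 lower (2) in mesenchymal-like cells, 0 to 1 higher and 0 to 6 lower in endothelial-like cells (0 and 0), 0 to 10 higher and 0 to 20 lower in immune-like cells (0 and 0) and 0 to 2 higher in mesothelial-like cells (0). It gave 0 to 10 higher (5) and 0 to 6 lower (3) in germline-positive cells against wild type, 0 to 2 higher in germline-negative cells (0), 0 to 2 higher (1) and 0 to 1 lower (1) between the 2, 0 to 4 for the interaction with immune-like cells (0), and 1 to 14 higher (1) and 1 to 37 lower (2) over the named subclasses. The log2 difference of the immune-like share was 0.47 to 0.80, and passed the test without Dnmt1 CKO replicate 2 (0.80, adjusted p = 0.0195).

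DESeq2 gave 3 higher in mesenchymal-like cells, 3 in germline-positive cells, 2 between germline-positive and germline-negative cells and 0 in subclasses, and 1 lower in immune-like cells. Sex as a covariate gave 3 higher and 0 lower in mesenchymal-like cells, 0 lower between germline parts and 1 lower in subclasses. That term grouped Dnmt1 CKO replicate 1, which held UMIs of both kinds, with wild type replicate 2. It is therefore not a clean adjustment for sex. Without the low-count filter, immune-like cells had 1 higher and 1 lower, mesothelial-like cells 1 higher, germline-negative cells 2 lower, the germline parts 3 higher and 2 lower, subclasses 8 higher and 19 lower, and the interactions 1 (epithelial-like), 3 higher and 1 lower (endothelial-like) and 2 (immune-like). Scaling by library size alone gave 2 higher in subclasses, Leiden resolutions of 0.5 and 2.0 gave 0, and clustering without the called genes gave 0 lower. With mesenchymal-like cells that hold other classes' markers left out, an alternative chosen after seeing the data, 2 rose in mesenchymal-like and in germline-positive cells, and 0 differed in either direction between the germline parts. The cause of these changes was not tested. The share of all genes called also differed between settings and is not given beside the counts in this section. Those counts alone therefore do not show a change particular to the members.

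The replicate block, with the replicate number (or, for the germline parts, the library) as a term, gave 4 lower in endothelial-like cells, 5 lower in germline-positive cells, 1 higher and 3 lower in germline-negative cells, 5 higher and 3 lower between the germline parts, 1 for the interaction with immune-like cells and 4 higher and 10 lower in subclasses. The deviations of same-numbered libraries correlated across genes at 0.15 in mesenchymal-like, 0.35 in epithelial-like, 0.14 in endothelial-like and 0.02 in immune-like cells. These values rest on only 2 pairs, and the labels give the number no meaning. Whether same-numbered libraries share more than a number is not known.

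Among single genes, with no call in any of these, Ifitm3 in alveolar type 2-like cells reversed at Leiden resolution 2.0 (-0.24), as did Eif2ak2 in cycling immune-like cells (0.038); Ifitm3 in neutrophil-like cells reversed without the filter (-0.019). Leaving out 1 library gave -0.085 to 0.73 for Ifi27l2a in cycling immune-like cells, -1.92 to 0.023 for Bst2 in lymphoid-like cells, and -0.023 to 0.44 for Ifitm3 and -2.3 to 0.62 for Rtp4 in neutrophil-like cells. Thinned to 2000 UMIs, Isg15 was seen in 2.30% of Dnmt1 CKO and 1.22% of wild type mesenchymal-like cells and B2m in 39.3% and 24.5%, and Bst2 in 5.19% of wild type ones.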
